A study of Mus musculus with 12 samples.

Results

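The 7 genes described here encode receptors for the inhibitory transmitter GABA and were measured in mouse dorsal root ganglia after loss of Prdm12, a transcription regulator of nociceptive sensory neurons, in the adult: Gabra2, Gabra3, Gabra5, Gabrb2 and Gabrg1, which encode subunits of the GABA-A receptor, and Gabbr1 and Gabbr2, which encode the paired subunits of the GABA-B receptor. They were taken by symbol, and all 7 were found among the 55416 genes counted and passed the filter on low counts. The study measured poly(A) RNA in 12 libraries, 6 from inducible Prdm12 knockout (iKO) mice and 6 from controls, all adult and labelled C57Bl6 with no substrain given. Every iKO mouse (3 females, 3 males) had both Prdm12 alleles floxed (Fl/Fl) and a Cre ERT2 gene, whose recombinase acts once tamoxifen is given, in Rosa26, and was injected with tamoxifen 1 month earlier. The 6 controls were of mixed kinds. Control 1 (female) had Cre and 1 floxed allele, control 2 (female) and control 3 (male) had 1 floxed allele and no Cre, and control 4 (male) had Cre and 0 floxed alleles; all of these received tamoxifen. Controls 5 and 6 (male) had the iKO genotype and received corn oil. The Rosa26 locus is active in most cell types, so recombination was not restricted to neurons, and nothing in the labels tells whether each library came from a single animal. P-values therefore measure the spread between these libraries.

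GABA-A receptors are pentameric chloride channels, most often built from α, β and γ subunits, and the α subunit sets much of their kinetics and drug response. GABA-B receptors are G protein-coupled receptors made of an obligate pair: GABBR1 binds the transmitter and GABBR2 carries the receptor to the surface and couples it to G proteins. Sensory neurons of the dorsal root ganglion keep a high internal chloride concentration through the importer NKCC1, so that GABA depolarises their terminals in the spinal cord, a step in presynaptic inhibition of incoming signals.

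Libraries held 13943784 to 20377766 counts. Prdm12, the targeted gene, was at 18.6 to 25.4 CPM (counts scaled to the size of each library) in iKO libraries and at 64.6 to 147 CPM in controls, with no overlap. The lowest control was control 6, injected with corn oil, and the other controls lay at 107 to 147 CPM. Genes that mark sensory neurons in general summed to 11800 to 15700 CPM in iKO libraries and 13300 to 15600 CPM in controls. One library, iKO 1, stood apart from the other 5 iKO libraries: its summed macrophage genes were at 406 CPM against 142 to 163 CPM, its fibroblast genes at 3930 against 1420 to 1640 CPM, its endothelial genes at 232 against 102 to 113 CPM, its myelinating Schwann cell genes at 6420 against 4430 to 5540 CPM, and its sensory neuron genes at 11800 against 15100 to 15700 CPM. Its large-diameter neuron genes were at 3850 against 6000 to 7160 CPM. Nonpeptidergic nociceptor genes were at 2850 against 3430 to 3710 CPM, and peptidergic ones at 2350 against 2500 to 2770 CPM. Of the 7 receptor genes 6, all but Gabra3, had their lowest value of the 12 libraries in iKO 1. Values without this library are given where they matter. Whether the mix of neurons and other cells accounts for these low values was not tested.

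The receptor genes differed widely in level. Per length (TPM, counts over annotated exon bases, scaled to an equal sum in each library), Gabbr1 was highest, at 232 ± 29.8 TPM in iKO and 236 ± 14.8 TPM in control libraries (SD, n = 6 each). Gabbr2 followed at 121 ± 24.1 TPM in iKO and 117 ± 10.2 TPM in controls. Gabbr1 exceeded Gabbr2 in 12 of 12 libraries without overlap of their ranges. Among the GABA-A genes of the set, Gabra2 (22.4 ± 4.12 TPM in iKO, 33.4 ± 9.53 TPM in controls) and Gabra3 (24.7 ± 2.32 and 24.9 ± 2.79 TPM) could not be ordered, since Gabra2 was the higher in only 6 of 12 libraries. Gabrg1 (11.3 ± 3.68 TPM in iKO, 11.6 ± 3.87 TPM in controls) and Gabrb2 (10.1 ± 2.55 and 10.3 ± 1.59 TPM) overlapped as well. Gabra5 was lowest, at 7.06 ± 1.56 TPM in iKO and 7.78 ± 1.29 TPM in controls, and lay below Gabrb2 in 12 of 12 libraries.

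Several subunit genes outside the set were scarce in the ganglion. Gabrb1, a β subunit gene, averaged 2.51 ± 0.545 TPM in iKO and 2.94 ± 0.39 TPM in control libraries (SD, n = 6 each). Over all 12 libraries Gabrg3, Gabre, Gabrd and Gabra4 averaged 1.32, 1.1, 1.05 and 1.04 TPM, and Gabrp and Gabra6 had 7 and 5 counts in all. With the longest transcript as the length the order of the means within the set was the same, Gabra2 exceeded Gabra3 in 10 of 12 libraries, and the ranges of Gabra3 and Gabrg1 overlapped.

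**Figure D1:**
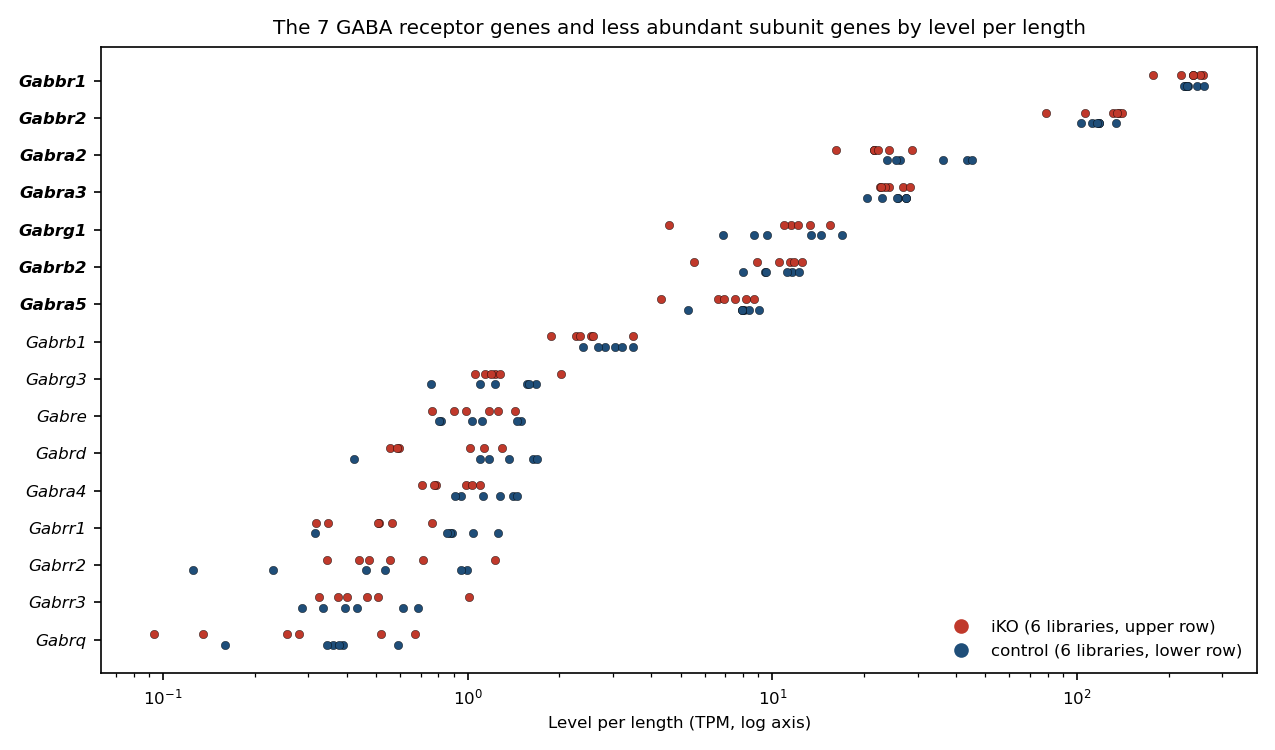
Level per length (TPM, log axis) of the 7 receptor genes (bold) and of scarcer subunit genes with a count in every library, highest at the top, with 6 iKO libraries (red, upper row of each gene) and 6 controls (blue, lower row). Gabbr1 and Gabbr2 lie highest, and the values of Gabra2 and Gabra3 overlap on the axis.

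None of the 7 receptor genes passed the test between iKO and control libraries. At an adjusted p under 0.05, edgeR's quasi-likelihood test called 0 of 7, and likewise 0 by DESeq2 and 0 by limma-voom, where edgeR called 0.946% of all 16384 genes tested. At an unadjusted p under 0.05 there was 1 of 7, Gabra2, where 9.52% of all genes reached that level. The other 6 had log2 fold changes under 0.1 in size, and their 95% intervals all lay within a change of 1.5-fold in either direction. The median log2 fold change was -0.02 over the set and 0 over all genes tested. In 0 of 7 genes were the iKO values all above or all below the controls, a separation seen in 1.54% of all genes.

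**Figure D2:**
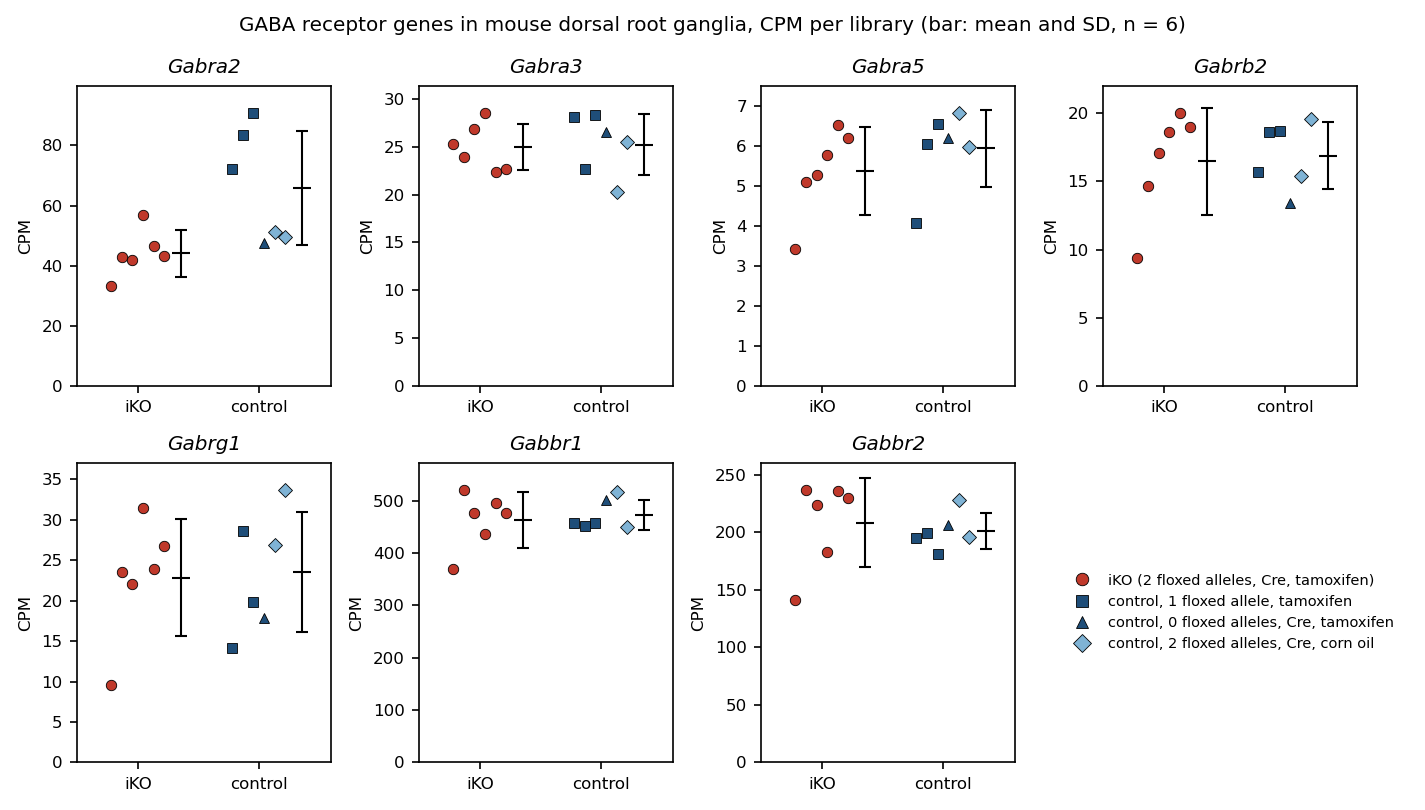
CPM of each of the 7 receptor genes in every library, iKO (red circles) left and controls right, the controls marked by floxed alleles and agent; the bar beside each group is the mean ± SD (n = 6). The groups overlap for every gene, and for Gabra2 the 3 controls with 1 floxed allele (72.2 to 90.7 CPM) lie above the other 9 libraries (33.1 to 56.7 CPM).

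Gabra2 encodes the α2 subunit, known at axon initial segments and on the central terminals of sensory neurons. Its level was 33.1, 42.8, 42, 56.7, 46.6 and 43.1 CPM in iKO 1 to 6, against 72.2, 83.6, 90.7, 47.4, 51.2 and 49.4 CPM in controls 1 to 6. Controls 1, 2 and 3 were high, while controls 4, 5 and 6 lay among the iKO values, with iKO 4 above all 3 of them. The log2 fold change was -0.58 ± 0.19 (SE), with a 95% interval of -0.99 to -0.17, and edgeR gave an adjusted p of 0.29. All 6 iKO values lay below the control median of 61.7 CPM, as did controls 4, 5 and 6. How many of all genes have every iKO value below the control median was not counted. A log2 fold change of the size of that of Gabra2 or more, in either direction, was seen in 1.71% of genes tested. In whole-ganglion RNA a lower level can mean fewer cells that express the gene or less RNA in each, and these cannot be told apart.

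The difference in Gabra2 depended on which controls it was set against. The iKO libraries averaged 44.1 ± 7.67 CPM (SD, n = 6). The 3 high controls are those whose labels give 1 floxed allele, a split noticed after the values were seen, at 82.2 ± 9.33 CPM (n = 3), and the other 3 controls averaged 49.4 ± 1.9 CPM. The iKO mean was 0.893 of that of the other controls, and the mean of the 1-allele controls was 1.67 times that of the other controls. The comparisons that follow share the iKO libraries. Against the 4 tamoxifen-injected controls the log2 fold change was -0.75 ± 0.17 (SE), which missed the threshold in edgeR (adjusted p = 0.0646), and 0 of 7 genes were called where 1.35% of all genes were. At an unadjusted p under 0.05 there was 1 of 7, where 17% of all genes reached that level. Gabra2 passed edgeR's threshold without control 4 (-0.94, adjusted p = 0.00088) or without iKO 4 (-0.82, adjusted p = 0.0349). Leaving out control 4 leaves controls 1, 2 and 3 as the reference, which are the 1-allele controls. It is therefore not separate from the fit to these controls given below. Against the corn-oil controls, which share the iKO genotype, it was -0.14 with an interval of -0.66 to 0.38 (adjusted p = 1). In that comparison 0 of 7 were called and 0 of 7 had an unadjusted p under 0.05, against 0.146% and 5.3% of all genes. Its reference is controls 5 and 6 alone, with Prdm12 at 147 CPM in control 5 and 64.6 CPM in control 6. In fits added after these values were seen, Gabra2 was at -0.94 with the 1-allele controls as the only reference. It was at -0.01 with them left out, where all remaining controls were male. These references were picked by the values of Gabra2 itself, so a p-value of Gabra2 from these fits is not a test and is not given. Floxed alleles, sex, Cre and agent overlap among the 6 controls, so their parts cannot be told apart.

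On chromosome 5 Gabra2 lies in a cluster, between Gabrg1 and, across Cox7b2, Gabra4 and Gabrb1, in the RefSeq gene order of an older build. Its neighbours did not share the split of the controls. Gabrg1 was at 14.1 to 28.6 CPM in the 1-allele controls and 17.9 to 33.7 CPM in the other controls. Gabra4, with 1.51 to 2.24 CPM in the 1-allele and 1.45 to 2.25 CPM in the other controls, and Gabrb1, with 10.3 to 12.6 and 8.39 to 11.3 CPM, overlapped between these controls too.

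A ratio of genes within a library does not depend on the scaling between libraries. Gabra2 over Gabra3 in TPM was 0.672, 0.919, 0.803, 1.02, 1.07 and 0.977 in iKO 1 to 6, against 1.32, 1.9, 1.65, 0.92, 1.29 and 0.996 in controls 1 to 6. The ratio was highest in controls 1, 2 and 3, with control 5 close to control 1, and the groups overlapped through controls 4 and 6. Its mean was 0.91 ± 0.149 in iKO libraries and 1.35 ± 0.374 in controls (SD, n = 6 each), and it was chosen after the values were seen.

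Gabra3 and Gabra5 encode the other α subunits of the set. Gabra3, an X-linked gene, was at 25.3, 23.9, 26.9, 28.5, 22.4 and 22.7 CPM in iKO 1 to 6, against 28.1, 22.7, 28.3, 26.5, 20.3 and 25.5 CPM in controls 1 to 6. The groups covered nearly the same range, and the log2 fold change was -0.02 ± 0.09 (SE, interval -0.22 to 0.17). Gabra5, whose receptors are known for tonic, extrasynaptic currents, was at 3.42, 5.1, 5.28, 5.79, 6.54 and 6.21 CPM in iKO 1 to 6, against 4.09, 6.06, 6.55, 6.2, 6.83 and 5.98 CPM in controls 1 to 6. Its low values were in iKO 1 and control 1, the groups overlapped, and the log2 fold change was -0.08 ± 0.13 (SE, interval -0.36 to 0.20). Gabra5 rested on 64 to 111 counts per library, the fewest of the set, and shares 4.98% of its exon bases with the antisense gene Gm9962, from which unstranded reads cannot separate it.

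Gabrb2 encodes a β subunit, part of the GABA binding site. It was at 9.41, 14.7, 17.1, 18.6, 20 and 19 CPM in iKO 1 to 6, against 15.7, 18.6, 18.7, 13.4, 15.4 and 19.6 CPM in controls 1 to 6. The iKO values spanned those of the controls at both ends (log2 fold change -0.02 ± 0.15 SE, interval -0.34 to 0.30). Without iKO 1 edgeR gave a log2 fold change of 0.09 (adjusted p = 0.716). Gabrg1 encodes the γ1 subunit, whose receptors are known for a low sensitivity to benzodiazepines. It was the most variable of the set, at 9.62, 23.5, 22, 31.4, 23.9 and 26.7 CPM in iKO 1 to 6, against 14.1, 28.6, 19.8, 17.9, 26.9 and 33.7 CPM in controls 1 to 6. Its biological coefficient of variation was 29.9%, against a median of 11.5% over all genes, and its log2 fold change of 0.00 ± 0.25 (SE) had an interval of -0.55 to 0.56, so that a level up to 1.47-fold higher, or down to 0.683 of the control level, was within the error. Without iKO 1 the value was 0.13 (adjusted p = 0.785).

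Of the GABA-B pair, Gabbr1 had the smallest standard error of the set. It was at 370, 521, 476, 437, 496 and 477 CPM in iKO 1 to 6, against 457, 451, 458, 502, 517 and 450 CPM in controls 1 to 6. Apart from iKO 1 all libraries lay within 437 to 521 CPM, and the log2 fold change was -0.02 ± 0.08 (SE, interval -0.19 to 0.15). Gabbr2 was at 141, 237, 224, 183, 236 and 230 CPM in iKO 1 to 6, against 195, 199, 181, 206, 228 and 196 CPM in controls 1 to 6. Of the iKO libraries, 1 and 4 were lower than the other 4, and the log2 fold change was 0.06 ± 0.11 (SE, interval -0.18 to 0.31). Both GABA-B genes were lowest in iKO 1. Gabbr1 over Gabbr2 in TPM was 1.94 ± 0.184 in iKO libraries and 2.03 ± 0.0921 in controls (SD, n = 6 each), with 2.25 in iKO 1, the highest of the 12 libraries, and 1.79 to 2.06 in the other iKO libraries.

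**Figure D3:**
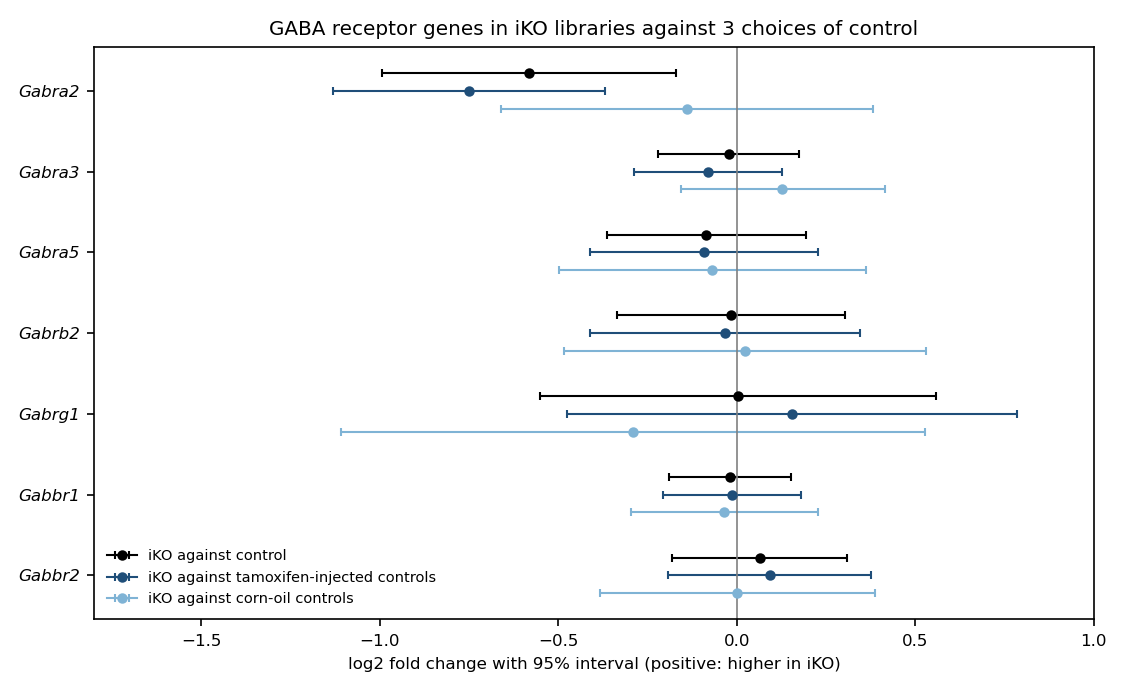
Log2 fold change (horizontal axis, positive where iKO is higher) of each receptor gene in iKO libraries against all 6 controls (black), the 4 tamoxifen-injected controls (dark blue) and the 2 corn-oil controls (light blue), with 95% intervals. Gabra2 has intervals below 0 in the first and second comparison and not in the third; every interval of the other 6 genes includes 0.

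The comparisons within the study's other labels gave no call. Between males and females, fitted beside group, 0 of 7 genes passed by edgeR's quasi-likelihood test (0.0549% of all genes did), and 1 of 7 had an unadjusted p under 0.05, as had 4.11% of all genes. That gene was Gabra5, at 6.18 ± 0.38 CPM in iKO males and 4.6 ± 1.03 CPM in iKO females (SD, n = 3 each), and at 6.39 ± 0.374 CPM in the 4 control males and 5.07 ± 1.39 CPM in the 2 control females (log2 difference 0.38 ± 0.13 SE, adjusted p = 0.904). For the group by sex interaction edgeR called 0 of 7 and 0% of all genes, with 0 of 7 at an unadjusted p under 0.05, against 3.59% of all genes. For Gabra2 the interaction was 0.70 with an interval of -0.03 to 1.42 (adjusted p = 0.945): the mean was 39.3 CPM in iKO females and 77.9 CPM in control females, and 48.8 CPM in iKO males and 59.7 CPM in control males. Both control females carried 1 floxed allele, so sex and genotype cannot be told apart here. Among controls, corn oil against tamoxifen likewise called 0 of 7 and 0% of all genes by edgeR, with 0 of 7 at an unadjusted p under 0.05, against 13.3% of all genes. The widest log2 differences were those of Gabrg1 at 0.69 (interval -0.25 to 1.62) and Gabra2 at -0.46 (interval -1.44 to 0.52).

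The machinery around the receptors held 2 genes that fell in iKO ganglia, both outside the receptor genes themselves. Gng2, a G protein γ subunit of the kind through which GABA-B and many other receptors signal, was at 233, 251, 235, 281, 249 and 255 CPM in iKO 1 to 6, against 405, 375, 423, 410, 343 and 341 CPM in controls 1 to 6. The groups did not overlap, as in 0.665% of all genes for iKO below control. In edgeR the change was -0.60 ± 0.07 on the log2 scale (SE, adjusted p = 0.000553), and it was the 1 gene called of 22 tested among GABA-B partners and effectors (0.409% of all genes were called lower, 0.537% higher), a list with a median of -0.02. Abat, GABA transaminase, which breaks GABA down, was at 70.7, 76, 75.9, 73.5, 70 and 68.3 CPM in iKO 1 to 6, against 95.3, 88.3, 95.7, 88.5, 84 and 77.7 CPM in controls 1 to 6. These groups did not overlap either, and Abat was at -0.30 ± 0.06 on the log2 scale (SE, adjusted p = 0.0186), the 1 call of 9 genes of GABA synthesis, transport and breakdown (median 0.09). Against the corn-oil controls Gng2 was at -0.39 (adjusted p = 0.109) and Abat at -0.18 (adjusted p = 0.836), and the call of Abat was lost without iKO 5 (adjusted p = 0.0759), iKO 6 (0.0725) or control 1 (0.0927). The call of Gng2 held with each library left out in turn. It was lost without the 1-allele controls (-0.47, adjusted p = 0.185) and in females alone (-0.69, adjusted p = 0.549). In these settings edgeR called 10 genes and 1 gene in all.

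**Figure D4:**
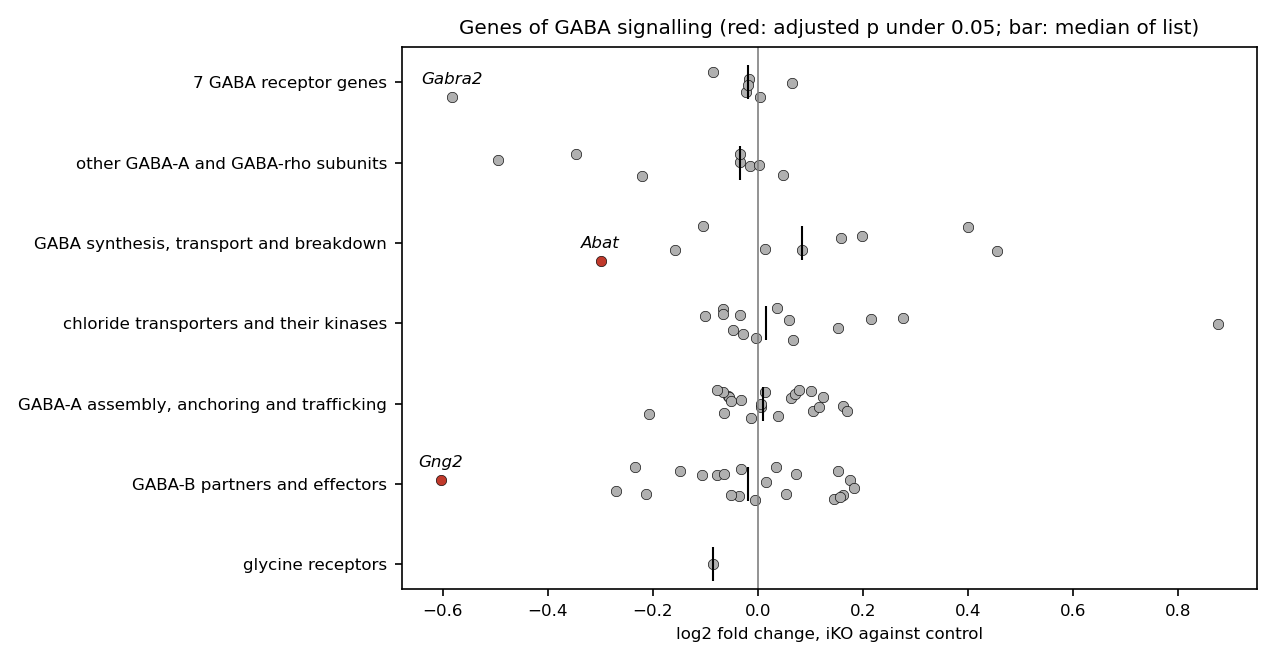
Log2 fold change of iKO against control (horizontal axis) for each gene tested in 7 lists of GABA signalling (one row each), red where the adjusted p was under 0.05 and grey elsewhere, with a black bar at the list median. Gng2 (-0.60) and Abat (-0.30) are the red points, and Gabra2 (-0.58) lies furthest left of the receptor genes.

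In the remaining lists of GABA signalling edgeR's quasi-likelihood test called 0 genes. Of all genes tested it called 0.946%, and 9.52% had an unadjusted p under 0.05. Of the 14 other GABA-A and GABA-ρ subunit genes 8 could be tested (median -0.03, 1 at an unadjusted p under 0.05). The smallest p was that of Gabra4, the α4 subunit, with 1.1 to 1.73 CPM in iKO libraries and 1.45 to 2.25 CPM in controls (log2 fold change -0.35 ± 0.16 SE, adjusted p = 0.509). Of 15 chloride transporters and their kinases 14 were tested (median 0.02, 1 at an unadjusted p under 0.05), and Clcn2, the ClC-2 chloride channel, had the smallest p (0.22 ± 0.09 SE, adjusted p = 0.476). Slc12a2, which encodes the importer NKCC1 and is given here with its values already known, was at 203 ± 16.9 CPM in iKO and 215 ± 6.98 CPM in control libraries (SD, n = 6 each, log2 fold change -0.07 ± 0.06 SE). Slc12a5, the neuronal exporter KCC2, chosen in the same way, was at 0.716 to 5.41 CPM in iKO libraries, the highest being iKO 5, and at 0.654 to 1.97 CPM in controls. All 22 genes of assembly, anchoring and trafficking were tested (median 0.01, 1 at an unadjusted p under 0.05). Tmem35a, known as an assembly factor of nicotinic receptors, had the smallest p (-0.21 ± 0.07 SE, adjusted p = 0.243). Of 5 glycine receptor genes only the β subunit gene Glrb could be tested (-0.09 ± 0.10 SE, adjusted p = 0.825).

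Transcripts for making GABA were scarce in the ganglion. Gad2, a GABA-synthesising enzyme, and Slc32a1, the vesicular GABA transporter, stayed under 1 CPM in all 12 libraries, with 26 and 16 counts over the 6 iKO libraries and 33 and 17 counts over the 6 controls. Gad1 was at 1.11 to 2.33 CPM in iKO libraries and 0.649 to 1.95 CPM in controls. Spinal cord neurons and glia could enter by dissection. Of 12 markers of them, Slc32a1, Lbx1, Mog, Olig2 and Opalin were under 1 CPM in every library. Slc6a5, Pax2 and Olig1 reached at most 1.95, 1.35 and 1.54 CPM. Higher over the 12 libraries were Aqp4 (12.8 to 22.2 CPM), Slc1a2 (8.54 to 21.8 CPM), Mobp (2.25 to 16.3 CPM) and Gfap (2.58 to 14.4 CPM). Aqp4, Slc1a2 and Slc6a5 were highest in iKO 5, Mobp and Olig1 in control 6, Gfap in control 1 and Pax2 in iKO 3. The list summed to 30.5 to 65.5 CPM in iKO libraries and 28.7 to 56.3 CPM in controls. Whether spinal cord tissue entered any library was not tested. These genes were named after their values were seen.

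Markers of the neurons and other cells of the ganglion were read beside the receptor genes. Over all genes tested, edgeR called 0.537% higher and 0.409% lower, and 9.52% had an unadjusted p under 0.05. Log2 fold changes were above 0 in 8193 of 16384 genes. General sensory neuron genes had 0 of 14 called by edgeR (0 at an unadjusted p under 0.05; median 0.05, Syt1 with the smallest p at 0.17 ± 0.08 SE). Nonpeptidergic nociceptor genes had 1 of 12 higher (Agtr1a) and 1 lower (Otoa; median -0.10), peptidergic nociceptor genes had 2 of 12 higher (Calcb, Cartpt) and 1 lower (Smr2; median -0.06), and large-diameter neuron genes had 1 of 13 higher (Ntrk3; median 0.03). Of the genes of myelinating Schwann cells 11 of 11 were above 0 (median 0.25, 0 called by edgeR, 3 at an unadjusted p under 0.05), and their sum was 4430 to 6420 CPM in iKO libraries and 3830 to 4930 CPM in controls. Satellite glia (median 0.00, Fbln5), macrophage (-0.02, Adgre1), fibroblast (-0.10, Postn) and endothelial lists (-0.12, Tek) had 0 called, the gene with the smallest p being named for each. Scaled to the general sensory neuron genes in place of all counts, Gabra2 was at -0.64 (adjusted p = 0.211), and 0 of 7 receptor genes were called.

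The genes whose levels followed each receptor gene most closely were sought in the part of log2 CPM that sex and group did not account for, over 12 libraries and among protein-coding genes. For Gabbr1 they were Adora1, the adenosine A1 receptor (Pearson's r = 0.992, Spearman's rho = 0.993), and Galnt17 (0.99 and 0.972), and for Gabbr2 they were Tvp23a (0.989 and 0.986) and Fam131b (0.987 and 0.979). Gabrg1 was followed by Clrn1 (0.981 and 0.979) and Dgkb (0.979 and 0.979), Gabrb2 by Fam120c (0.972 and 0.832) and Hsdl2 (0.945 and 0.972), and Gabra5 by Kctd20 (0.969 and 0.965) and Atpaf1 (0.966 and 0.909). Gabra2 was followed by Usp48 (0.964 and 0.951) and Cstf3 (0.939 and 0.923), and Gabra3 by Usp53 (0.928 and 0.902) and Cracr2a (0.908 and 0.867). These are the highest of all genes searched, carry no test, and share the same libraries, iKO 1 included.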

How the data were processed

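Poly(A) RNA of 12 dorsal root ganglion samples was sequenced from unstranded TruSeq libraries, per the labels' protocols. The authors deposited raw counts per Ensembl gene for each library. The submitters' processing notes name GRCm39, STAR 2.7.8a, featureCounts 2.0.1 and bcl2fastq 2.20.0.422; the annotation release and counting options were not given in the sources used here. Identifiers were matched to symbols of GENCODE M21, an annotation of the older GRCm38 build, for 52083 of 55416 genes (99.67% of counts); it served for names, exon lengths, overlaps and chromosomes only, and TPM values use its exon bases.

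Counts were scaled by TMM, filtered with filterByExpr (16384 genes; 16791 among controls alone) and tested with edgeR 4.0.16's robust quasi-likelihood test in R 4.3.3, with sex as a term (residual df of 9). Benjamini-Hochberg adjustment ran over every gene tested, and calls were made at 0.05. Intervals are at 95%. DESeq2 1.42.0 and limma-voom (limma 3.58.1) were alternatives. Log2 CPM used a prior count of 2. The procedure was tested on simulated data. No list was given a set test; each is described by its counts and median.

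The genes and lists were chosen with earlier results of these data known. The text names the 7 receptor genes and Prdm12, up to 4 called genes of each list or else that with the smallest p, and for each receptor gene the 2 protein-coding genes of mean log2 CPM of 0 or more with the highest Pearson correlation of residuals. No pair of libraries was identical. Values of some other subunit and marker genes are not reported here.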

Additional observations from a re-analysis of the deposited data

Results flagged for a closer look

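Within the 6 libraries of a group, 3 of 36 combinations of gene and group examined held a library further from the others than Dixon's 95% critical value; chance gives about 1 in 20. Gabra5 was at 4.09 CPM in control 1, where the other controls lay between 5.98 and 6.83 CPM. Gabrg3, the γ3 subunit, was at 6.2 CPM in iKO 4, where the other iKO libraries lay between 3.27 and 3.87 CPM. Prdm12 was at 18.6 CPM in iKO 1, where the other iKO libraries lay between 22.9 and 25.4 CPM. The causes were not tested.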

How the results depend on the processing

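DESeq2 called 294 genes, against 155 by edgeR. The number called by edgeR moved with the samples and settings used: it was 253 with no filter on low counts, 35 in replicates 1 to 4, 82 in replicates 5 and 6, 235 with tamoxifen-injected and 1 with corn-oil controls alone, 49 with Cre-carrying controls, 45 in males, 1 in females, 341 without iKO 1 and control 6, and 92 to 364 with 1 library left out (364 without iKO 1, 93 without iKO 5, 97 without iKO 6, 92 without control 1, 103 without control 2). In settings added after the data were seen it was 238 with the 1-allele controls as the only reference and 10 without them. The members called were 0 of 7 in each alternative of this comparison but the reference of 1-allele controls, where 1, Gabra2, was called. That reference was picked by the values of Gabra2, so this call cannot serve as a test. Gabra2 spanned -0.68 to -0.46 with 1 library left out (adjusted p of 0.163 to 0.585), and DESeq2 gave -0.58 (0.061). Against tamoxifen-injected controls 1 member, Gabra2, was called with no filter (-0.73, adjusted p = 4.05e-17) and between 0 and 1 with 1 library left out (Gabra2 at -0.94 to -0.62). In the interaction with sex 1, Gabra2, was called with no filter (0.70, adjusted p = 0.00178). With the filter edgeR gave nearly the same log2 values and no call (-0.75, adjusted p = 0.0646, and 0.70, adjusted p = 0.945). These no-filter calls thus depend on the filter. In the comparison with all controls, no filter gave Gabra2 at -0.57 by edgeR (adjusted p = 0.57). With 1 library left out Gabra2 was at -0.851 to 0.084 for corn oil against tamoxifen and -0.127 to 0.101 for male against female. Replicate numbers are shared between the groups, and the labels do not say that they pair the libraries. Same-number correlations were -0.153 to 0.217, with 3 of 6 numbers correlating best with themselves. Sex was not taken out of these correlations, so they do not settle whether the numbers pair. With the replicate block beside sex edgeR called 79 genes and Gabra2 was at -0.44 (adjusted p = 0.825). With the replicate block in place of sex it called 161 genes and Gabra2 was at -0.55 (adjusted p = 0.445).

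The 6 genes near 0 changed sign in some settings, none with a call. Values below against corn-oil controls come from fits without the tamoxifen-injected controls. They differ from the contrasts given above, which kept all libraries in the fit. Gabra3 was at 0.004 with the run of numbers as a term, 0.032 in replicates 1 to 4, 0.099 against corn-oil controls, 0.005 in females, 0.035 without the 1-allele controls and -0.079 to 0.034 with 1 library left out. Gabra5 was at 0.029 with Cre-carrying controls and -0.144 to 0.022 with 1 library left out. Gabrb2 was at 0 with no filter, 0.156 in replicates 5 and 6, 0.134 against corn-oil controls, 0.103 with Cre-carrying controls, 0.191 in males, 0.128 without iKO 1 and control 6, 0.26 without the 1-allele controls and -0.081 to 0.085 with 1 library left out. Gabrg1 was at -0.009 with upper quartile scaling, -0.01 with total counts, -0.071 scaled to neuron genes, -0.043 with no sex term, -0.102 and -0.059 with the replicate block with and without sex, 0 with the run of numbers, -0.262 in replicates 5 and 6, -0.149 against corn-oil controls, -0.208 in females and -0.087 to 0.226 with 1 library left out. Gabbr1 was at 0.011 in replicates 5 and 6, 0.012 in females, 0.019 without iKO 1 and control 6, 0.029 against the 1-allele controls and -0.053 to 0.03 with 1 library left out, and Gabbr2 at -0.021 with the replicate block beside sex (0.034 with the block in place of sex) and -0.003 in replicates 1 to 4. The causes were not tested. Gabra5 rested on the fewest counts of the set, 64 to 111 per library. Outside the set, Gng2 was called in 31 of 34 alternatives (-0.69 to -0.38) and Abat in 23 of 34 (-0.35 to -0.19), where the calls of Abat that were lost include the replicate block with sex (adjusted p = 0.102), males alone (0.205) and the 1-allele controls left out (0.68).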
